A study of Mus musculus with 6 samples.

Results

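The genes described here make, regulate, break down or sense polyamines and histamine. They were chosen by name and pathway, with earlier results of these data known: *Odc1*, *Azin1*, *Oaz1*, *Amd1*, *Srm*, *Sms* and *Sat1* for polyamines, and *Hdc*, *Hnmt* and *Hrh2* for histamine, 10 of the 56748 genes counted. Whole uteri were taken on day 4 of pregnancy at 1600 h, shortly before embryos attach in the mouse, from 3 control females and 3 with the *Gp130* deletion, and were measured by RNA-seq. *Gp130* ecKO females carried *Ltf*-iCre and 2 floxed alleles of *Gp130* (gene symbol *Il6st*), the signal-transducing receptor chain for leukemia inhibitory factor and related cytokines. Controls are labelled wildtype, and the methods of the study describe control females as floxed without iCre or wildtype. All mice were on the C57BL/6J background and over 8 weeks old. *Ltf*-iCre deletes in the uterine epithelium, but *Ltf*, the lactoferrin gene, is also used by some immune cells, neutrophils and macrophages among them. The RNA came from epithelium, stroma, muscle, vessels and immune cells together. In such RNA, fewer cells of a type and less RNA per cell cannot be told apart.

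Polyamines (putrescine, spermidine and spermine) are small positively charged molecules that bind RNA and DNA and are needed for growth. Ornithine decarboxylase makes putrescine in the first step, antizyme binds the enzyme and sends it to the proteasome, and antizyme inhibitor binds antizyme in its place. Ornithine decarboxylase is known to rise in the mouse uterus around implantation, and histamine made from histidine by the uterine epithelium, acting through its receptors, has been linked to implantation in rodents.

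Regulatory sequence was printed for 4 of the genes, credited to RefSeq for promoters and read on GRCm39. Antizyme carries its own sensor of polyamines: ribosomes must shift by 1 base at a stop codon in the *Oaz1* mRNA to make the full protein, and polyamines favour that shift. The site lies in exon 2 of *Oaz1* at chr10:80664114-80664143 on the plus strand, and the capitals mark the codon before the shift and the stop codon TGA.
Oaz1 frameshift site: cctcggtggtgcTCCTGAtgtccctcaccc
The promoter windows run from 250 bases before to 50 bases after a start site. They are shown for *Hdc* and *Hnmt*, the enzymes that make and inactivate histamine, which were both higher in every *Gp130* ecKO uterus, and for *Odc1*, which was lower. Capitals mark GGGCGG, the GC box, on either strand in *Hdc* and *Odc1*, and CCAAT, the CCAAT box, in *Hnmt*. The *Hdc* window is chr2:126460549-126460848 on the minus strand, the *Hnmt* window chr2:23939342-23939641 on the minus strand, and the *Odc1* window chr12:17594624-17594923 on the plus strand.
Hdc promoter: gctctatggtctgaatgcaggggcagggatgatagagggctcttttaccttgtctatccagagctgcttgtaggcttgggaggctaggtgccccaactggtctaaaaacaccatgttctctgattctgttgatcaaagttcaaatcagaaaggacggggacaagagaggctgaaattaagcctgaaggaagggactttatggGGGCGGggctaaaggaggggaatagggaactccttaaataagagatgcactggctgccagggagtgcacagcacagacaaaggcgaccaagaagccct
Hnmt promoter: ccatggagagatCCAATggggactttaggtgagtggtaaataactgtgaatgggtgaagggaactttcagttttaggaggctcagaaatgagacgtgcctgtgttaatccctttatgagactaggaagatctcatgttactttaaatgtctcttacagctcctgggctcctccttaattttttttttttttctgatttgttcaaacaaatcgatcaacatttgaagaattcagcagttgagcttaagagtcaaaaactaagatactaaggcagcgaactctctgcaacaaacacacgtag
Odc1 promoter: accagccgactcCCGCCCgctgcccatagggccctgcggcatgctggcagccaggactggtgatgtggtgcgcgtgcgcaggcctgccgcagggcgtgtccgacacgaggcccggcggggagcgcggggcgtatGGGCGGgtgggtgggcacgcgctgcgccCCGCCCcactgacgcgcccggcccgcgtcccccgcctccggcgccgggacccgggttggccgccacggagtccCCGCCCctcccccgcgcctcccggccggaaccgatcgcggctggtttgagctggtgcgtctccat
The windows differ in base composition, with 50.7% G and C in *Hdc*, 39.3% in *Hnmt* and 78% in *Odc1*. The *Odc1* window holds 4 GC boxes and the *Hdc* window 1.

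Across the genes, 10 promoter windows were found for 8 of the 10, and none for *Azin1* and *Srm*. Each motif was searched on both strands, and no motif contains another. TTCNNNGAA, the spaced repeat that STAT factors bind, was in 0 of the 10 windows and in 8.3% of all 32851 windows of that length. GGGCGG was in 7 of the 10 (*Hdc*, *Amd1*, *Odc1*, *Hrh2*, *Sat1* and *Sms*) and in 35.7% of all. CCAAT was in 3 (*Hnmt*, *Oaz1* and *Sms*) and in 37.4% of all. GGTCA, the repeated unit of many nuclear receptor sites, was in 2 (*Sat1* and *Sms*) and in 40.5% of all. CACGTG, the E-box bound by MYC among others, was in 1 (*Sms*) and in 7.15% of all, and TATAAA was in 1 (*Oaz1*) and in 13.6%. These are matches of letters in a window, and binding was not measured.

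The tables held 13960748 (control 3) to 25906443 (control 2) counts per uterus. In a multidimensional scaling of all genes the *Gp130* ecKO uteri lay between −1.47 and −1.32 on the first dimension, controls 1 and 3 at 2.09 and 2.08, and control 2 between the groups at 0.03. On the second dimension controls 1, 2 and 3 lay at 1.70, −0.28 and −1.61, so controls 1 and 3 were also far from each other. The *Gp130* ecKO uteri lay between −0.84 and 0.54 there. *Il6st* itself, on chromosome 13 from 112600604 to 112646620, was at 451 to 677 CPM in controls and 349 to 387 CPM in *Gp130* ecKO (log2 fold change −0.68, SE 0.21, quasi-likelihood adjusted p = 0.120). CPM is the gene's count scaled to library size after TMM normalization. Since control 2 lay nearest the *Gp130* ecKO uteri on the first dimension, values without it are given where they change a call.

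As a group, the genes did not move in 1 direction. Of the 9 that passed the filter on low counts, all but *Hrh2*, 3 had a higher and 6 a lower mean in *Gp130* ecKO, and the median log2 fold change was −0.13, against −0.05 over all 16605 genes tested. With 1 uterus left out the median of the 9 ran from −0.32 (without *Gp130* ecKO 1) to −0.03 (without *Gp130* ecKO 2), and that of all genes was 5.90e-04 without control 1. None was called at an FDR under 0.05 and over 2-fold change by edgeR's quasi-likelihood test, beside 0.157% of all genes (26 of 16605). At an unadjusted p under 0.05 there were 6, of which *Azin1*, *Hdc* and *Hnmt* were higher and *Odc1*, *Srm* and *Sat1* lower, beside 25.0% of all genes (12.1% higher and 12.9% lower). That number was 3 without control 1, without control 3, without *Gp130* ecKO 1 or without *Gp130* ecKO 2. In CPM, controls and *Gp130* ecKO were fully apart for 5 (*Azin1*, *Hdc* and *Hnmt* higher, *Odc1* and *Srm* lower), beside 31.3% of all genes (15.7% higher and 15.6% lower); with DESeq2's size factors it was 4, without *Odc1*.

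Other tests called more genes, among all genes as well as here. *Srm* and *Hnmt* were called by edgeR's exact test (7.54% of all genes), edgeR's likelihood ratio test (7.93%) and DESeq2 (9.29%). Without control 2 the quasi-likelihood test called *Azin1*, *Srm* and *Hnmt*, beside 5.20% of all genes. Control 2 was the control nearest the mean of the *Gp130* ecKO uteri for 7 of the 9 genes, and for 51.1% of all genes tested.

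**Figure D1:**
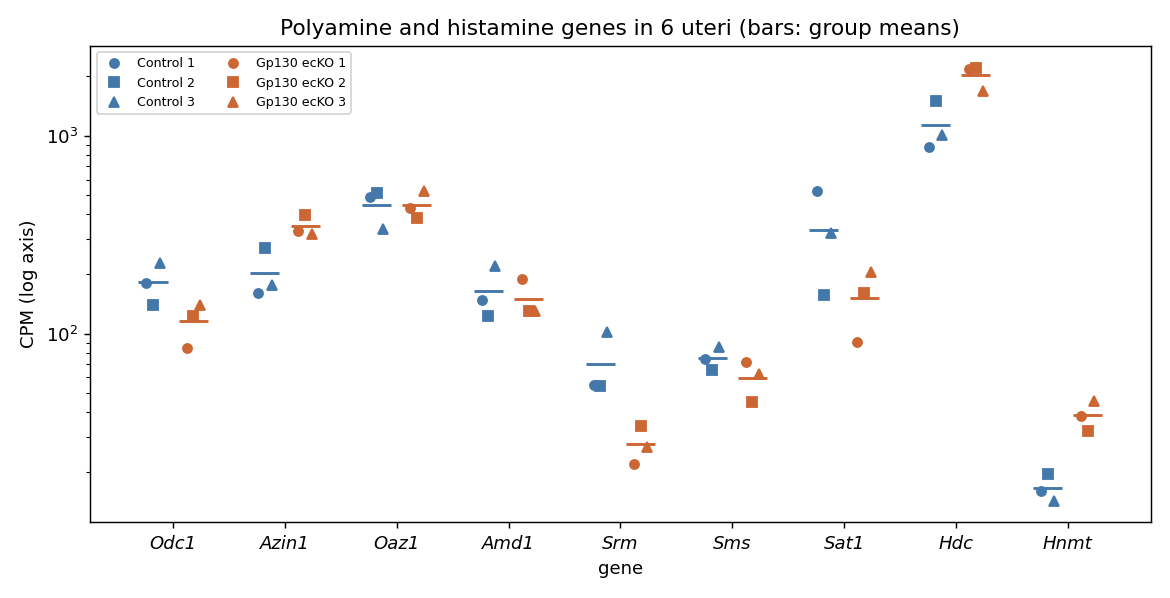
CPM of the 9 tested genes (log axis) in each uterus, with controls in blue, *Gp130* ecKO in orange, symbols for the replicate number and bars for group means. *Azin1*, *Hdc* and *Hnmt* lie higher and *Odc1* and *Srm* lower in every *Gp130* ecKO uterus, and control 2 (blue square) is the control closest to the orange mean for 7 of the 9.

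*Odc1* (ENSMUSG00000011179, chromosome 12 from 17594383 to 17601507) encodes ornithine decarboxylase, the enzyme that sets the pace of polyamine synthesis. It stood at 179, 140.2 and 228 CPM in the control uteri numbered 1, 2 and 3 and at 84.7, 123 and 139 CPM in the *Gp130* ecKO uteri, in the same order of numbers. All *Gp130* ecKO uteri lay below all controls, but the lowest control and the highest *Gp130* ecKO uterus differed by about 1 CPM. The log2 fold change was −0.66 (SE 0.25, n = 3 per group, quasi-likelihood adjusted p = 0.168), and it stayed between −0.78 and −0.47 with any uterus left out. With size factors of the kind DESeq2 uses the groups overlapped. They also overlapped in TPM, which is scaled by transcript length, where control 2 was at 87.1 and *Gp130* ecKO 2 at 93.5.

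*Oaz1* (ENSMUSG00000035242, chromosome 10 from 80662516 to 80665124) encodes antizyme, the inhibitor of ornithine decarboxylase. It stood at 492, 515 and 338 CPM in the control uteri and at 430, 382 and 523 CPM in the *Gp130* ecKO uteri. The groups overlapped, with the highest value in *Gp130* ecKO 3 and the lowest in control 3. The log2 fold change was −0.01 (SE 0.23, quasi-likelihood adjusted p = 0.977), and its sign turned in 7 of 17 alternatives, which ranged from −0.18 to 0.13.

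*Azin1* (ENSMUSG00000037458, chromosome 15 from 38487539 to 38519785) encodes antizyme inhibitor, a relative of ornithine decarboxylase that has no enzyme activity and frees the enzyme from antizyme. It stood at 160.4, 272 and 177 CPM in the control uteri and at 329, 397 and 319 CPM in the *Gp130* ecKO uteri. All *Gp130* ecKO uteri lay above all controls, and control 2 was the highest control. The log2 fold change was 0.78 (SE 0.24), a 1.71-fold difference, with a quasi-likelihood adjusted p of 0.119. Without control 2 it was 1.08 and was called (adjusted p = 0.0386). DESeq2 gave an adjusted p of 0.0363 at under 2-fold, and over 17 alternatives the adjusted p ran from 0.0363 to 0.286.

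The genes of ornithine decarboxylase and its regulators were set against each other within each uterus as ratios of TPM. *Azin1* relative to *Oaz1* was 0.0691, 0.125 and 0.119 in the control uteri and 0.179, 0.239 and 0.145 in the *Gp130* ecKO uteri. The groups did not overlap, and the difference of the means was 0.87 on the log2 scale (exact two-sided permutation p = 0.1, the smallest that 3 against 3 can give, and 0.4 adjusted over 4 ratios). *Odc1* relative to *Oaz1* was 0.129, 0.0951 and 0.212 in the control uteri and 0.0691, 0.116 and 0.0976 in the *Gp130* ecKO uteri, which overlapped (log2 difference −0.58, exact permutation p = 0.3, adjusted 0.4). Without control 3 that difference was −0.26, and without *Gp130* ecKO 1 it was −0.37. Antizyme also acts after translation, which RNA counts do not show.

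*Amd1* (ENSMUSG00000075232, chromosome 10 from 40162797 to 40178185) encodes S-adenosylmethionine decarboxylase, which makes the aminopropyl donor for both later steps. It stood at 148, 122 and 220 CPM in the control uteri and at 189, 130 and 130 CPM in the *Gp130* ecKO uteri. The groups overlapped and the log2 fold change was −0.13 (SE 0.26, quasi-likelihood adjusted p = 0.782). Without control 3, the highest uterus, it was 0.14.

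*Srm* (ENSMUSG00000006442, chromosome 4 from 148675940 to 148681792) encodes spermidine synthase, which turns putrescine into spermidine. It stood at 55.3, 54.2 and 102 CPM in the control uteri and at 21.8, 34.2 and 26.6 CPM in the *Gp130* ecKO uteri. All *Gp130* ecKO uteri lay below all controls in CPM and in TPM, and control 3 stood far above the other controls. With all 6 uteri this was the largest lower difference among the 9 genes, with a log2 fold change of −1.35 (SE 0.30), 2.55-fold lower, and a quasi-likelihood adjusted p of 0.0821. The adjusted p was 0.00399 with edgeR's exact test, 0.00372 with its likelihood ratio test, 0.00278 with DESeq2 and 0.0492 without control 2. Over 17 alternatives it ran from 0.00278 to 0.249, and the log2 fold change from −1.53 to −0.99.

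*Sms* (ENSMUSG00000071708, chromosome X from 156226848 to 156275317) encodes spermine synthase, which adds the next aminopropyl group to make spermine. It stood at 74.3, 65.1 and 85.2 CPM in the control uteri and at 72.0, 45.4 and 62.3 CPM in the *Gp130* ecKO uteri. The groups overlapped, since *Gp130* ecKO 1 was above control 2. The log2 fold change was −0.32 (SE 0.21, quasi-likelihood adjusted p = 0.372), and −0.15 without *Gp130* ecKO 2.

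*Sat1* (ENSMUSG00000025283, chromosome X from 153996128 to 153999452) encodes spermidine/spermine acetyltransferase, which tags polyamines for breakdown and export. It stood at 528, 157 and 322 CPM in the control uteri and at 90.2, 159 and 204 CPM in the *Gp130* ecKO uteri. Control 1 was the highest uterus, and control 2 was below *Gp130* ecKO 2 and 3, and the groups overlapped. Its log2 fold change was −1.15 (SE 0.46, quasi-likelihood adjusted p = 0.183), and without control 1 it was −0.62. This gene varied most between controls, with a coefficient of variation of 55.5%, against 13.4% for *Sms*. *Odc1* relative to *Sat1* in TPM was 0.120, 0.323 and 0.320 in the control uteri and 0.372, 0.317 and 0.260 in the *Gp130* ecKO uteri, which overlapped (log2 difference 0.44, exact permutation p = 0.7, adjusted 0.7). Without control 1 that difference was −0.04.

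*Hdc* (ENSMUSG00000027360, chromosome 2 from 126435558 to 126461318) encodes histidine decarboxylase, the only mammalian enzyme known to make histamine. It was the most abundant of the 9 genes in CPM, at 879, 1505 and 1014 in the control uteri and 2167, 2210 and 1692 in the *Gp130* ecKO uteri. All *Gp130* ecKO uteri lay above all controls, and control 2 lay closest to them. The log2 fold change was 0.84 (SE 0.31), a 1.79-fold difference, with a quasi-likelihood adjusted p of 0.156. DESeq2 gave an adjusted p of 0.0241, still under 2-fold, and over 17 alternatives the adjusted p ran from 0.0241 to 0.354 and the log2 fold change from 0.71 to 1.13.

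*Hnmt* (ENSMUSG00000026986, chromosome 2 from 23892668 to 23939872) encodes histamine N-methyltransferase, which inactivates histamine inside cells. It stood at 15.9, 19.5 and 14.3 CPM in the control uteri and at 38.5, 32.3 and 45.6 CPM in the *Gp130* ecKO uteri. All *Gp130* ecKO uteri lay above all controls, with 19.5 CPM in the highest control and 32.3 CPM in the lowest *Gp130* ecKO uterus. Its p was the smallest of the 9 genes: the log2 fold change was 1.22 (SE 0.22), a 2.34-fold difference, with an unadjusted p of 6.36e-04 and a quasi-likelihood adjusted p of 0.0636. The adjusted p was 8.72e-04 with edgeR's exact test, 8.39e-04 with its likelihood ratio test, 8.41e-05 with DESeq2 and 0.0323 without control 2. Over 17 alternatives it ran from 8.41e-05 to 0.188, and the log2 fold change stayed between 1.12 and 1.39.

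*Hrh2* (ENSMUSG00000034987, chromosome 13 from 54345993 to 54390199) encodes the H2 receptor, which raises cyclic AMP when histamine binds. It had 13, 5 and 5 counts in controls and 9, 14 and 0 in *Gp130* ecKO. All 6 uteri were at or under 0.538 CPM, and the 0 in *Gp130* ecKO 3 allows up to 0.124 CPM (3 counts, counting error only). The gene failed the filter on low counts and was not tested.

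The gene that makes histamine and the gene that inactivates it were both higher in each *Gp130* ecKO uterus than in any control. *Hdc* relative to *Hnmt* in TPM was 32.7, 45.6 and 42.5 in the control uteri and 32.4, 36.2 and 20.5 in the *Gp130* ecKO uteri. The groups overlapped, and the log2 difference was −0.47 (exact permutation p = 0.2, adjusted 0.4). Without *Gp130* ecKO 3 it was −0.22.

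**Figure D2:**
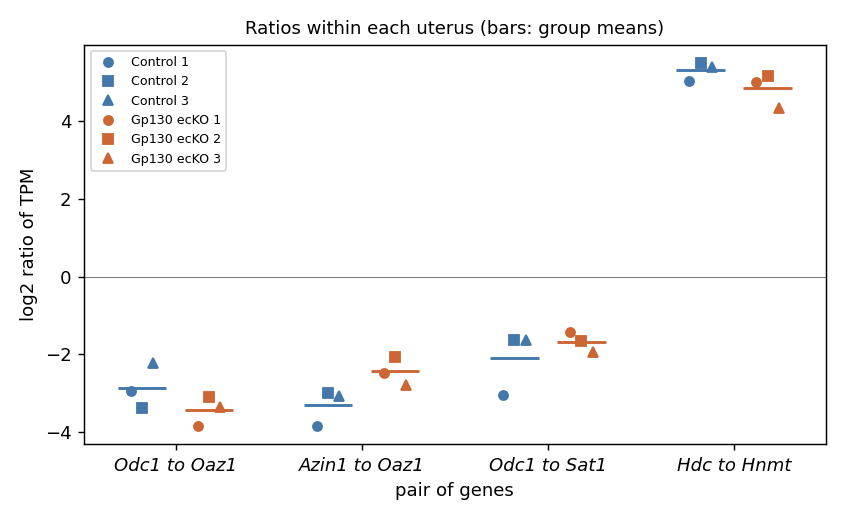
Log2 ratio of TPM within each uterus for 4 pairs of genes, with controls in blue, *Gp130* ecKO in orange and bars for group means. The groups are apart only for *Azin1* to *Oaz1*, where the difference of the means is 0.87, and they overlap for the other pairs.

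In TPM, which allows levels of different genes to be compared, the order of the control means was *Oaz1* (823), *Hdc* (655), *Sat1* (547), *Odc1* (116), *Azin1* (85.9), *Srm* (75.4), *Amd1* (69.0), *Sms* (52.0), *Hnmt* (16.1) and *Hrh2* (0.13). The control ranges of neighbours in this order overlapped, except between *Sat1* and *Odc1*, *Sms* and *Hnmt*, and *Hnmt* and *Hrh2*. In *Gp130* ecKO, *Hdc* came first with a mean of 1238 TPM, above *Oaz1* at 842. *Azin1* stood above *Odc1* there (157 and 79.1 TPM), and neither of these pairs overlapped in *Gp130* ecKO. The mean of *Srm* was at rank 9 (34.1 TPM), but its range of 27.1 to 45.4 TPM overlapped those of *Hnmt* (40.5 to 45.0 TPM) and *Sms* (35.1 to 49.7 TPM), so these 3 could not be ordered there.

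Of 34 other genes of the pathways, 28 were tested, and 0 were called by edgeR's quasi-likelihood test (0.157% of all genes). The exact test of edgeR called 2 (7.54% of all genes), its likelihood ratio test 3 (7.93%) and DESeq2 3 (9.29%). At an unadjusted p under 0.05 there were 8, of which 4 were higher and 4 lower, a share of the 28 near the 25.0% of all genes. The median log2 fold change of all 28 was −0.15. The groups did not overlap for 5 higher and 7 lower genes, beside 15.7% higher and 15.6% lower among all genes.

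Among the enzymes that remove the products, *Maoa* and *Maob*, the monoamine oxidases that act on methylhistamine among other amines, were both lower in CPM in every *Gp130* ecKO uterus, while their TPM overlapped. *Maoa* was at 69.9, 77.3 and 78.3 CPM in the control uteri and 34.5, 57.8 and 43.1 CPM in the *Gp130* ecKO uteri (log2 fold change −0.73, SE 0.21, adjusted p = 0.112). *Maob* was at 98.9, 157 and 161 CPM in the control uteri and 62.9, 90.2 and 32.3 CPM in the *Gp130* ecKO uteri (log2 fold change −1.17, SE 0.37, adjusted p = 0.125). *Maob* was called by edgeR's likelihood ratio test (adjusted p = 0.0498) and by DESeq2 (adjusted p = 0.0386), and not by the exact test of edgeR (adjusted p = 0.0526).

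Among the transporters, *Atp13a2*, which exports polyamines from lysosomes, was at 38.2, 44.4 and 37.6 CPM in the control uteri and 81.6, 62.1 and 66.4 CPM in the *Gp130* ecKO uteri, without overlap (log2 fold change 0.81, SE 0.17, adjusted p = 0.0770). Its adjusted p was 0.0175 with the exact test of edgeR, 0.0167 with the likelihood ratio test and 0.00276 with DESeq2, at a change under the 2-fold needed for a call. Its relative *Atp13a4* was at 37.5, 0 and 4.46 CPM in the control uteri and 0.452, 0 and 0.124 CPM in the *Gp130* ecKO uteri. Control 1 alone held most of its counts and control 2 and *Gp130* ecKO 2 had none (a count of 0 allows up to 0.116 and 0.115 CPM there). The groups overlapped, and the fitted log2 fold change of −6.23 (SE 1.96, adjusted p = 0.122) ran from −7.75 to −3.40 with 1 uterus left out and was called without control 2. *Slc7a2*, a carrier of arginine and other cationic amino acids, was at 14.4, 23.9 and 45.6 CPM in the control uteri and 6.59, 15.1 and 7.49 CPM in the *Gp130* ecKO uteri, with overlap (log2 fold change −1.51, SE 0.49, adjusted p = 0.129). It was −0.97 without control 3, and the gene was called by the exact and likelihood ratio tests and DESeq2. Further genes with an unadjusted p under 0.05 were *Slc7a1*, a related carrier (log2 fold change 0.51), and *Aoc1*, the diamine oxidase that degrades putrescine and histamine outside cells. *Aoc1* was low, at 4.36, 3.50 and 0.999 CPM in the control uteri and 9.89, 4.53 and 9.90 CPM in the *Gp130* ecKO uteri (log2 fold change 1.42, SE 0.55, adjusted p = 0.169).

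The genes of the other histamine receptors, *Hrh1*, *Hrh3* and *Hrh4*, were near 0 and below the filter in these uteri, as was *Oaz3*, the testis antizyme. *Agmat* and *Slc22a2* had 0 counts, which allows up to 0.20 CPM in the shallowest library. *Eif5a*, whose protein carries a residue made from spermidine, was at 826 to 1082 CPM in controls and 606 to 826 CPM in the mutant uteri (log2 fold change −0.46, adjusted p = 0.249).

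**Figure D3:**
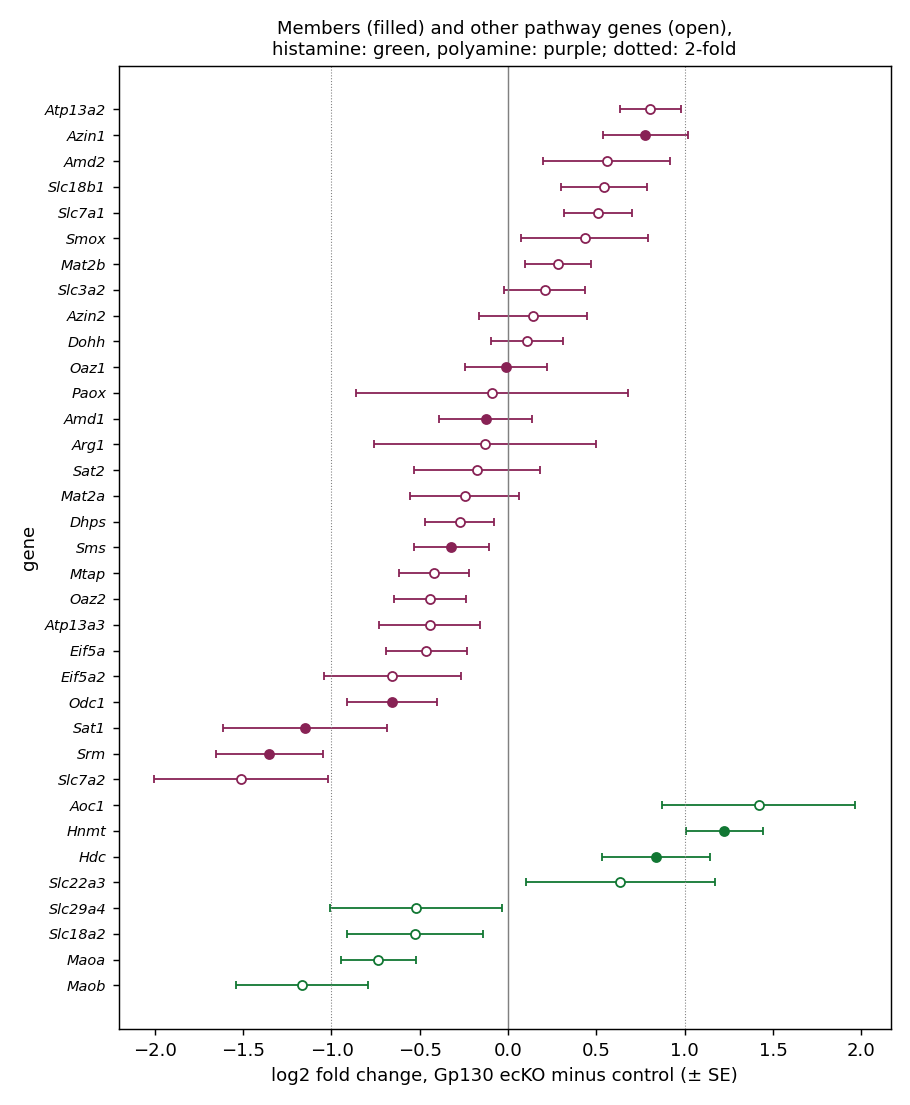
Log2 fold change (*Gp130* ecKO minus control, ± SE) of tested polyamine (purple) and histamine (green) genes, with the genes chosen by name filled and the other genes of the pathways open. *Hnmt*, *Hdc* and *Azin1* lie to the right and *Srm* and *Sat1* to the left, and *Atp13a4*, at −6.23, is left out so that the other genes can be read.

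Cell type markers moved with the groups, and their part in the differences above was not tested. Summed CPM of 6 epithelial markers was 2571, 2705 and 1803 in the control uteri and 5434, 3944 and 4250 in the *Gp130* ecKO uteri. Of these markers, 4 of 6 were higher at an unadjusted p under 0.05, among them *Krt19*. *Krt18* (log2 fold change 0.74) and *Epcam* (−0.19) overlapped between groups. The study reported higher KRT8 and CDH1 protein in the *Gp130* ecKO epithelium by staining, and both genes are in this sum. Whether the sum follows the amount of epithelium was not tested. Summed CPM of 6 stromal markers was 2181 to 2398 in controls and 902 to 1404 in *Gp130* ecKO, with 5 of 6 lower. All 5 endothelial markers were lower at that threshold too. The sum of 5 gland markers was 72.5 to 744 CPM in controls and 139 to 8462 CPM in *Gp130* ecKO. Its highest value, in *Gp130* ecKO 1, came from *Prss28* and *Prss29*, and the other gland markers *Foxa2*, *Cxcl15* and *Aldh1a1* were highest in *Gp130* ecKO 3, and the smooth muscle sum overlapped (486 to 2026 CPM in controls and 366 to 2289 CPM in *Gp130* ecKO). None of these markers was called, and markers of uterine epithelium, stroma and muscle were present in every uterus.

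Immune cells that can make histamine were also read from their markers. Summed CPM of 8 mast cell markers was 123, 65.3 and 77.2 in the control uteri and 21.4, 40.1 and 57.2 in the *Gp130* ecKO uteri. Most of that sum was *Kit*, which other cells also express, and *Tpsab1*, *Ms4a2* and *Fcer1a* stayed under 1 CPM in every uterus. The mast cell protease genes *Cpa3*, *Cma1*, *Mcpt4* and *Tpsb2* were at 1.53 to 6.95 CPM in controls and 0.226 to 3.11 CPM in *Gp130* ecKO. Their fitted fold changes were 2.22- to 3.52-fold lower in *Gp130* ecKO. Of these genes, *Cma1* and *Tpsb2* did not overlap between groups and *Cpa3* and *Mcpt4* did. None of the 4 was called by edgeR's quasi-likelihood test (adjusted p = 0.124 to 0.241). Summed CPM of 6 neutrophil markers was 5.26 to 8.47 in controls and 0.587 to 1.74 in *Gp130* ecKO. The basophil sum was 9.26 to 17.7 in controls and 6.55 to 10.3 in *Gp130* ecKO, nearly all of it *Il3ra*, and the basophil protease gene *Mcpt8* had no counts. The macrophage sum, mostly *Lyz2*, overlapped (337 to 410 CPM in controls and 216 to 528 CPM in *Gp130* ecKO), while 1 of its 6 markers, *Mrc1*, was lower without overlap (24.5 to 28.8 CPM against 7.04 to 14.0 CPM, edgeR quasi-likelihood adjusted p = 0.0804).

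**Figure D4:**
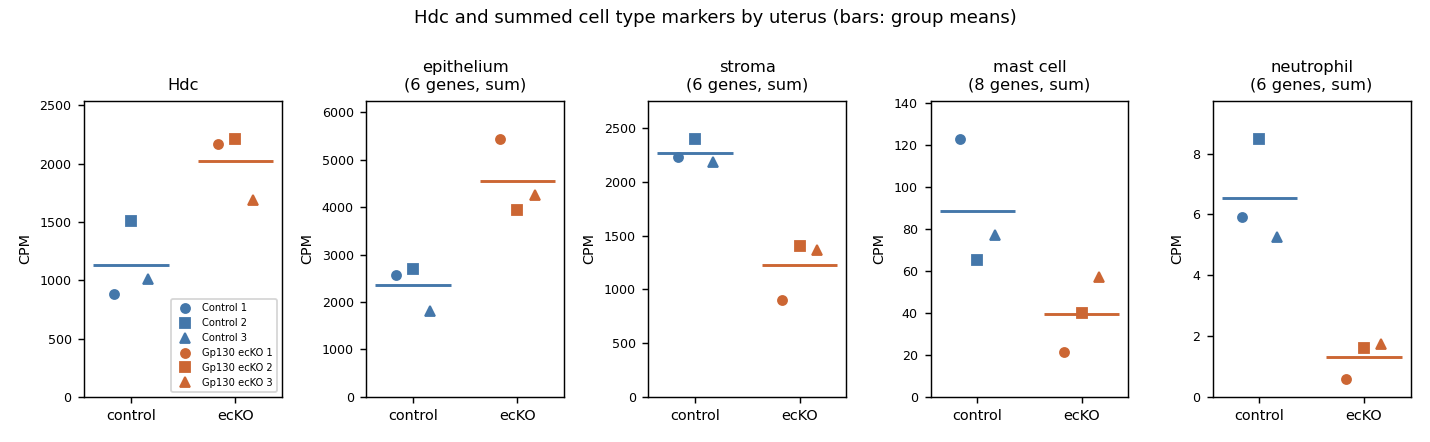
CPM of *Hdc* and summed CPM of the markers of 4 cell types in each uterus, with controls in blue, *Gp130* ecKO in orange and bars for group means; each axis starts at 0. *Hdc* and the epithelial sum lie higher and the stromal, mast cell and neutrophil sums lower in *Gp130* ecKO, without overlap.

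The same genes were then expressed relative to tissue markers, a scale chosen after the values had been seen. Relative to the summed epithelial markers, *Hdc* was 0.342, 0.556 and 0.562 in the control uteri and 0.399, 0.560 and 0.398 in the *Gp130* ecKO uteri, and *Hnmt* and *Azin1* overlapped as well. On that scale 6 of the 9 genes, *Odc1*, *Oaz1*, *Amd1*, *Srm*, *Sms* and *Sat1*, were lower without overlap, beside 64.2% of all genes lower without overlap. Relative to *Epcam*, which overlapped between groups, *Hdc*, *Hnmt* and *Azin1* were higher without overlap, beside 13.1% of all genes, and the other 6 overlapped. Relative to the summed stromal markers *Hdc*, *Hnmt*, *Azin1* and *Oaz1* were higher without overlap, beside 54.9% of all genes, and *Odc1* and *Srm* overlapped.

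The counting model also gives each gene a mean transcript length per uterus, weighted by the isoforms it assigns. That length was shorter in *Gp130* ecKO without overlap for *Odc1* (2125 to 2168 bases in controls and 2064 to 2112 in *Gp130* ecKO), *Srm* (1285 to 1321 and 1180 to 1213) and *Hnmt* (1409 to 1429 and 1276 to 1385). It was longer for *Sms* (1926 to 1991 and 2022 to 2091). These are 4 of the 9 genes, beside 19.4% of the 13128 genes whose length varied between uteri (9.72% shorter and 9.67% longer). *Hdc* kept nearly the same length in every uterus, from 2330 to 2351 bases.

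Several of the genes have near-identical copies with which reads could be divided. Of all stretches of 75 bases in the annotated transcripts, 61.1% were shared with other genes on the same strand for *Amd1* (*Amd2* and pseudogenes), 17.6% for *Oaz1* (*Oaz1-ps*), 16.9% for *Sms*, 16.1% for *Odc1* and 0.94% for *Sat1*. Counts assigned to the copies came to 9.36% to 19.8% of those of *Sms* itself, 4.18% to 8.38% for *Oaz1*, 2.74% to 7.15% for *Amd1*, and 1.09% to 2.43% for *Odc1*. How many reads were assigned to the wrong copy was not tested, so the levels of these genes are uncertain. *Srm*, *Hdc*, *Hnmt* and *Azin1* shared none on the same strand, and *Azin1* shared 8.07% with the antisense gene *Gm49077*.

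Finally, the genes most like *Odc1* and *Hdc* in profile were found by the root mean square difference of centred log2(CPM + 0.5) over the 6 uteri, among 10256 genes with a mean of at least 10 CPM. Nearest to *Odc1* were *Pcdh7* (0.0959), *Parp3* (0.0968) and *Polr1e* (0.107). Nearest to *Hdc* were *Etv3* (0.0629), *Pde4dip* (0.0734) and *Gsk3b* (0.0747). With 6 uteri in 2 groups these differences describe likeness of pattern only.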

How the data were processed

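RNA from 6 whole uteri was sequenced from strand-specific libraries. The authors trimmed reads with fastp 0.23.2, removed ribosomal RNA reads, mapped the rest to GRCm39 with STAR 2.7.10a and estimated expected counts per gene with RSEM 1.3.3, which divides shared reads between genes. Neither the annotation version nor the strand setting of the counting is given in the sources used here, nor is the edgeR test. TPM and FPKM, scaled for length and depth, were deposited in the same tables; TPM served for levels and ratios between genes, and FPKM for an alternative.

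For the tests, rounded expected counts were used with edgeR 4.0.16 under R 4.3.3 (filterByExpr, TMM, glmQLFit without the legacy form, glmQLFTest), with Benjamini-Hochberg adjustment over 16605 genes. Every adjusted p without another name is from that test. Genes were called at an FDR under 0.05 and more than 2-fold change. SE was taken as log2 fold change over the root of the F statistic. The fit was tested on simulated data whose planted changes were larger than those of the chosen genes, so smaller changes were not covered. Single ratios were compared by an exact two-sided permutation test. Total counts were 13960748 to 25906443 per uterus, and chi-square per degree of freedom between replicates of a group was 92.4 to 134, so no 2 replicates of a group were nearly identical. Each numbered sample was taken here as 1 uterus, and p-values measure the spread between these samples.

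The 10 genes and all lists were chosen with earlier results of these data known. All 10 are named. Of the other pathway genes, those with an unadjusted p under 0.05 are named, with values for at most 6 of them, smallest p first, except 1 that is counted but not reported here; *Aoc1* values, *Eif5a*, *Il3ra* and the marker genes named singly were singled out after their values were seen. Alternatives were other tests (DESeq2 1.42.0 among them), scalings and filters, unrounded counts, a replicate block, each uterus left out, and scales relative to markers, added after seeing the data. Gene coordinates came from GENCODE M39, which holds 56017 of 56748 identifiers. Promoter windows came from RefSeq's GRCm38.p6 table and were each found once on GRCm39.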

Additional observations from a re-analysis of the deposited data

How the results depend on the processing

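With all 6 uteri, none of the 10 genes was called by edgeR's quasi-likelihood test in either form, under any scaling, filter or rounding tried, or without the fold threshold. The exact test, the likelihood ratio test and DESeq2 called 2 of them each, and leaving out 1 uterus gave 0 to 3, with 3 without control 2. The cause was not tested. Calls among the other pathway genes were 2 with the exact test, 3 with the likelihood ratio test and 3 with DESeq2, and 0 to 1 with 1 uterus left out. The number of the genes with an unadjusted p under 0.05 was 3 to 6 with 1 uterus left out, and 3 without control 1, control 3, *Gp130* ecKO 1 or *Gp130* ecKO 2. The number without overlap was 4 to 7 with 1 uterus left out, 4 with DESeq2's size factors (*Odc1* then overlapped) and 3 relative to *Epcam*. Calls over all genes were 26, and 7 in the legacy form, 105 with no filter, 1252 with the exact test, 1317 with the likelihood ratio test, 1542 with DESeq2, and 1 to 892 with 1 uterus left out. *Oaz1* turned sign, to 0.00332 with DESeq2, 0.00336 with its size factors and 0.0148 with no filter, and ran from −0.18 to 0.13 with 1 uterus left out. *Amd1* ran from −0.32 to 0.14. Correlations of same-numbered uteri were 0.10, 0.07 and −0.20, and those of differently numbered uteri ran from −0.31 to 0.22. With 3 uteri per group these values cannot settle whether the numbers pair the uteri. With a replicate block 0 of the genes were called, 5 had an unadjusted p under 0.05, and 6 of all genes were called. Paired by number, the *Azin1* to *Oaz1* ratio gave an exact p of 0.25. The median of all genes was −0.11 with upper quartile scaling. Precision is limited by 3 uteri per group, and depth limits *Hrh2*.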
